A study of Mus musculus with 54 samples.

Results

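Ribosome biogenesis was followed through 40 genes in mouse microglia, out of 55536 genes listed in the deposited tables. The genes were given as a list of symbols and were looked up in both RNA tables. All 40 were found and all 40 passed the filter on low counts in both mouse models. By role, 3 belong to the box C/D snoRNP, 4 to the box H/ACA snoRNP, 5 are abundant nucleolar proteins, 2 are subunits of RNA polymerase I, 14 act on the small ribosomal subunit and 12 on the large one.

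Microglia, the resident macrophages of the brain, were isolated by flow cytometry from individual mice (DAPI-, CD11b high, CD45 int, Ly6C-), and each RNA library came from 1 mouse, with 3 mice in each of 8 groups. The tolerance model used wild-type C57BL/6J males that were injected into the peritoneum at the start and again 4 weeks later. Each injection held either PBS (P) or 1 mg/kg of lipopolysaccharide (LPS, L), a component of the outer membrane of gram-negative bacteria, and the letters give the order, so that PL mice met LPS for the first time at the last injection and LL mice for the second time. The training model used Ercc1 Δ/ko mice of a mixed FVB and C57BL/6J background (KO) and their littermates (WT), aged 11 to 12 weeks, which were given PBS or 1 mg/kg LPS once. Its groups are named by genotype and treatment, and its libraries also by mouse number, as in WT-PBS-175. All mice were killed 3 h after their last injection. Ercc1 is a subunit of a DNA repair endonuclease, the KO mice carry a truncated and a null allele in every cell, and they age rapidly. WT stands for a mixture of Ercc1 wt/Δ, wt/ko and wt/wt littermates, and which of these a control mouse was is not given. The models differed in strain, sequencer and depth, so each was fitted on its own.

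Ribosome biogenesis begins in the nucleolus, where RNA polymerase I transcribes the precursor of the 18S, 5.8S and 28S rRNAs. Small nucleolar ribonucleoproteins (snoRNPs) modify this precursor, box C/D particles by 2′-O-methylation and box H/ACA particles by pseudouridylation. A large set of assembly factors then folds and cleaves the rRNA into the small (40S) and large (60S) subunits, which are exported and finished in the cytoplasm. In many cell types the genes of this pathway are induced with cell growth, and the transcription factor Myc is a known activator of many of them. In macrophages, growth and protein synthesis are adjusted during activation by LPS.

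The promoters of 4 members are shown because the members' RNA moved together, and because these 4 differ in a known binding string of Myc and in their response. Each run holds 250 bases upstream of an annotated RefSeq start and the first 50 transcribed bases, 5′ to 3′ on the coding strand, in GRCm38.p6. Capitals mark CACGTG, the canonical E-box bound by Myc with its partner Max, and CCGGAAG, a string bound by ETS factors. Nop58 has neither. Nop2 has CACGTG beginning 60 bases upstream of the start and CCGGAAG 38 bases upstream. Wdr43 and Pes1 have CACGTG beginning at transcribed base 18 and 3, within the first exon.
Nop58 promoter, chr1:59684756-59685055, plus strand: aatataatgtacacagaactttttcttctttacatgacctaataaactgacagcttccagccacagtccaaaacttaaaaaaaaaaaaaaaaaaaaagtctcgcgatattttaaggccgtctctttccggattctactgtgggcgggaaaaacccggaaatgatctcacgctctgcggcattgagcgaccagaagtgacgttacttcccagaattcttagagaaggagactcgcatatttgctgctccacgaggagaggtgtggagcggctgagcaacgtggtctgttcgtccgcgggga
Nop2 promoter, chr6:125131633-125131932, plus strand: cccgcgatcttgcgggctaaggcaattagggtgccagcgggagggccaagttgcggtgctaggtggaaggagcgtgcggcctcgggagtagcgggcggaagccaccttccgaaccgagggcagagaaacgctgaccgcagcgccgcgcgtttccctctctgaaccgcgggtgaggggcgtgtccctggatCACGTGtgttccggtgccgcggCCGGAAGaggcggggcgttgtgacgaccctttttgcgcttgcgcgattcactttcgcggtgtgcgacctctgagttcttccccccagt
Wdr43 promoter, chr17:71615965-71616264, plus strand: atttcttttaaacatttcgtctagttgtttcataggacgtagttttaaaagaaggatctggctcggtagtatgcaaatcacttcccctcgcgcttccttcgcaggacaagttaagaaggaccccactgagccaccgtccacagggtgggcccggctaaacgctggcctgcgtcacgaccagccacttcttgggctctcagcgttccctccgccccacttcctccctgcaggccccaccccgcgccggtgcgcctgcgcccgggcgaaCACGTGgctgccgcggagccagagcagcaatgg
Pes1 promoter, chr11:3963725-3964024, plus strand: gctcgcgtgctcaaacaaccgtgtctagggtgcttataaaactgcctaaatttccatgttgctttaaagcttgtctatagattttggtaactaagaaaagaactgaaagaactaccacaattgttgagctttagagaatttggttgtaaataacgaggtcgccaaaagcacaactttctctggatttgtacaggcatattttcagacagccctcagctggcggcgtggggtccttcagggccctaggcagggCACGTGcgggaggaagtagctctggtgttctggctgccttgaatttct

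Of the 40 members, 34 had a RefSeq promoter entry, with 38 promoters among them. CACGTG was found in 15.8% of the members' promoters (Ltv1, Mybbp1a, Nop2, Pes1, Tsr1 and Wdr43) and in 7.15% of all 32851 promoters. CCGGAAG, searched on both strands, was found in 34.2% of the members' promoters and in 8.86% of all promoters. Among genes tested in the tolerance model, 11.6% had CACGTG and 20.1% had CCGGAAG, against 17.6% and 35.3% of the 34 members. In the 250 upstream bases alone, the order for CACGTG turned. It was then found in 2.94% of the members, against 6.86% of all genes and 9.77% of genes tested. CCGGAAG was found there in 20.6% of the members, against 7.83% and 15.6%. The strings CGCATGCG, bound by NRF1, and CCAAT were found in 2.63% and 26.3% of the members' promoters, against 1.87% and 37.4% of all promoters. Among genes tested, 4.32% had CGCATGCG and 42.9% had CCAAT, against 2.94% and 29.4% of the 34 members. For CGCATGCG this was 1 member, Nob1. No string is part of another, and a match describes the sequence only. Of the 6 members with CACGTG, 5 rose after a first LPS injection, as did 35 of all 40 members and 26.0% of all genes tested. Pes1 did not pass the test, and Nop58, with none of these strings, had the largest increase.

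Total expected counts ran from 4530395 to 15307836 per library in the tolerance model and from 18243891 to 34659337 in the training model. Microglial markers dominated every library. Their summed level was 39570 to 45401 CPM (counts scaled by TMM to a common library total) in PP and LP, 22177 to 30482 in PL and 32493 to 35148 in LL. No microglial marker was at 0 in any group. Of the 8 neutrophil markers Ly6g was at 0 in PP and LL. Neutrophil markers summed to 1.32, 183.8 and 305 CPM in the 3 PL libraries and to at most 51.4 CPM in the other tolerance libraries, and lymphocyte markers summed to at most 3.32 CPM in any library. Monocyte markers summed to 22.1 to 29.0 CPM in PP, 55.3 to 94.8 in PL and 42.4 to 45.8 in LL. Over all libraries the sums were 177 to 543 CPM for astrocyte, 117 to 438 for oligodendrocyte, 14.96 to 63.4 for endothelial, 4.71 to 89.5 for neuron and 1.98 to 892 for erythrocyte markers. In the training model the astrocyte sum, led by Slc1a3, was 177 to 247 CPM with PBS and 420 to 543 with LPS. The part of other cells in the members' values was not tested. Microglial sums in the training model were 36373 to 39751 CPM in KO-PBS, 39752 to 47452 in WT-LPS and 24824 to 33342 in KO-LPS, and markers of border-associated macrophages were lower in KO-LPS (446 to 475 CPM) than in WT-LPS (1019 to 1137). Ercc1 RNA, part of which the truncated allele can still give, was at 9.58, 10.96 and 8.79 CPM in WT-PBS, 6.36, 5.14 and 8.18 in KO-PBS, 9.82, 7.93 and 8.70 in WT-LPS and 4.67, 5.11 and 6.82 in KO-LPS. No KO library reached the lowest WT library of the same treatment. The library WT-PBS-175 had a microglial sum of 28536 CPM, against 53534 and 58199 in the other WT-PBS libraries. In it the members lay a median of 0.29 on the log2 scale above their group means, so the main results that rest on WT-PBS are also given without it. Because it was singled out by the members' own levels, leaving it out must raise their WT response as a set. The values without it are therefore a description. In bulk RNA, fewer cells of a type and less RNA per cell cannot be told apart.

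The first comparison asked how the pathway responds to an acute LPS challenge in mice not exposed before. In PL, 35 of 40 members were higher than in PP and none was lower, at an adjusted p under 0.05 with edgeR's quasi-likelihood test. Of all 16096 genes tested, 26.0% were higher and 26.6% were lower. The members' median log2 fold change was 1.16, against -0.041 for all genes tested, and 24 members had a log2 fold change of 1 or more. All 40 members had a fold change above 0. Summed over the 40 members, the level went from 1697 to 1729 CPM in the PP libraries to 3848 to 4387 CPM in PL, a 2.36-fold difference (SD 0.18). As a share of all counts, the members went from 0.177% in PP to 0.384% in PL. For 36 members every PL library lay above every PP library, which held for 29.3% of all genes tested.

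**Figure D1:**
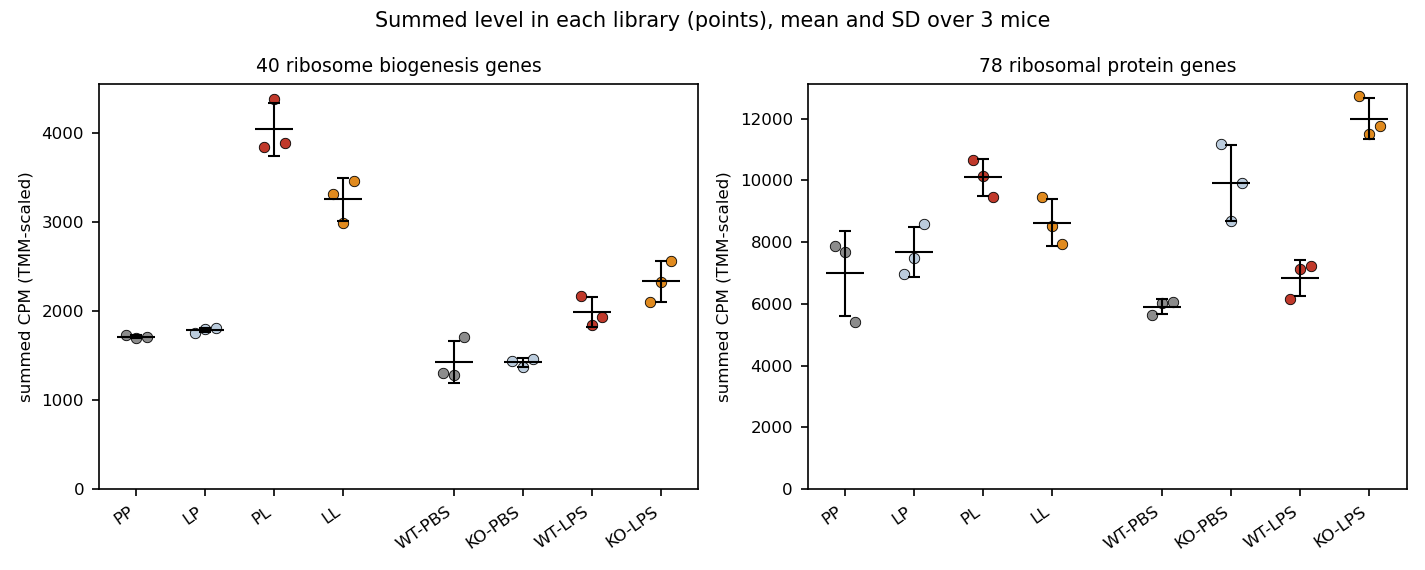
Summed level in each library, in CPM, by group, for the 40 members at the left and 78 ribosomal protein genes at the right. Each panel holds the groups of both models, points are mice and bars are group means with the SD. For the members, PL and LL lie above PP and LP with no overlap, and WT-PBS-175 lies above the other WT-PBS libraries at 1704 CPM.

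Neutrophil transcripts differed among the PL libraries. PL replicate 1, with a neutrophil sum of 1.32 CPM, had 3848 CPM of the members, and replicates 2 and 3, with 183.8 and 305 CPM, had 4387 and 3894. With any single library left out, 34 to 36 members were higher in PL. Of the 35 calls, 34 were made in each of these fits, and Dkc1 was not.

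Among the box C/D proteins, which hold the methylation guide RNAs, all 3 members rose. Nop58 (chr1:59684971-59719044, plus strand, GRCm38), a core scaffold protein of the particle, was at 24.6, 28.2 and 24.8 CPM in PP and 138, 139 and 123 in PL. It was at 28.6, 28.6 and 26.998 in LP and 108, 92.0 and 103 in LL. No LPS library overlapped a library of mice whose last injection was PBS, and all 3 LL libraries lay below all 3 PL libraries. Its log2 fold change was 2.36 ± 0.10 (SE, adjusted p = 6.73e-10) at the first and 1.84 ± 0.10 (SE, adjusted p = 1.43e-08) at the second injection, the largest among the members in both. The paralogous scaffold Nop56 was at 73.2, 73.1 and 86.1 CPM in PP and 142, 200.1 and 152 in PL, then 76.7, 77.5 and 65.6 in LP and 115, 109.6 and 141 in LL. Fibrillarin (Fbl), the methyltransferase, was at 34.2, 31.6 and 24.01 CPM in PP and 58.3, 80.1 and 70.1 in PL, then 28.6, 33.1 and 38.0 in LP and 54.9, 55.3 and 48.1 in LL. For both genes LPS and PBS groups were separate. Nop56 rose by 1.09 ± 0.14 and 0.72 ± 0.14 (log2, SE) at the 2 challenges (adjusted p = 1.95e-05 and 0.00147), and Fbl by 1.20 ± 0.15 and 0.68 ± 0.15 (adjusted p = 1.42e-05 and 0.00371). Nop56 had counts that were not whole in all 12 libraries of each model, so part of its reads may be shared with other places and its level is less certain. The same held in all 12 tolerance libraries for Fbl, Mybbp1a, Pes1 and Rrp1b, and in all 12 training libraries for Npm1 and Polr1b. Most other members had such counts in part of the libraries.

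The box H/ACA proteins were divided. Gar1 and Nhp2 rose at both challenges, the pseudouridine synthase Dkc1 only just passed the test at the first, and Nop10 did not pass at either. Nhp2 was at 13.04, 12.8 and 10.3 CPM in PP, 26.6, 25.9 and 20.6 in PL, 12.2, 12.04 and 12.4 in LP and 21.7, 16.1 and 19.9 in LL. Dkc1 was at 20.999, 19.2 and 22.1 CPM in PP and 21.5, 29.7 and 26.5 in PL, then 24.5, 21.1 and 23.4 in LP and 26.0, 23.9 and 27.1 in LL. For Dkc1 the groups overlapped in both comparisons. Its log2 fold change of 0.32 ± 0.13 (SE, adjusted p = 0.0497) in PL did not pass without PP replicate 1 or 2, PL replicate 2 or 3, any LP replicate, or LL replicate 2 or 3, with an adjusted p of 0.0535 to 0.171 in these fits. Nop10, the smallest H/ACA protein, was at 8.54, 8.46 and 8.38 CPM in PP and 7.95, 10.5 and 8.02 in PL, then 7.70, 9.40 and 8.60 in LP and 8.89, 11.9 and 7.68 in LL. These values overlapped throughout, with log2 fold changes of 0.054 ± 0.18 (SE, adjusted p = 0.813) and 0.14 ± 0.18 (SE, adjusted p = 0.583).

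All 5 abundant nucleolar proteins rose at both challenges. Nucleolin (Ncl), which binds the rRNA precursor, was at 142, 147 and 135 CPM in PP and 331, 381 and 318 in PL, then 133, 144 and 159 in LP and 279.8, 254 and 300.3 in LL. The helicase Ddx21 was at 92.1, 82.1 and 80.2 CPM in PP and 302, 279.7 and 278 in PL, then 93.7, 86.5 and 86.8 in LP and 229, 202 and 255 in LL. Mybbp1a, a nucleolar protein that binds Myb, was at 142, 140.4 and 147 CPM in PP and 273, 295 and 285 in PL, then 145, 156 and 152 in LP and 238, 221 and 253 in LL. In these 3 genes the levels fell into 3 separate bands, PP with LP at the bottom, LL above them and PL at the top. First responses were 1.28 ± 0.11, 1.76 ± 0.10 and 0.99 ± 0.086 (log2, SE; adjusted p = 3.10e-07, 1.14e-08 and 4.67e-07) for Ncl, Ddx21 and Mybbp1a. Nucleophosmin (Npm1, chr11:33152287-33163206, minus strand), a chaperone of the granular nucleolus, had a smaller response, from 61.2, 59.7 and 56.8 CPM in PP to 112, 118 and 95.2 in PL, and from 59.2, 63.3 and 66.2 in LP to 86.7, 95.8 and 93.9 in LL. Its LL and PL libraries overlapped. Nolc1, a snoRNP chaperone, rose by 1.75 ± 0.11 and 1.32 ± 0.11 (log2, SE) at the 2 challenges (adjusted p = 1.65e-08 and 6.42e-07).

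**Figure D2:**
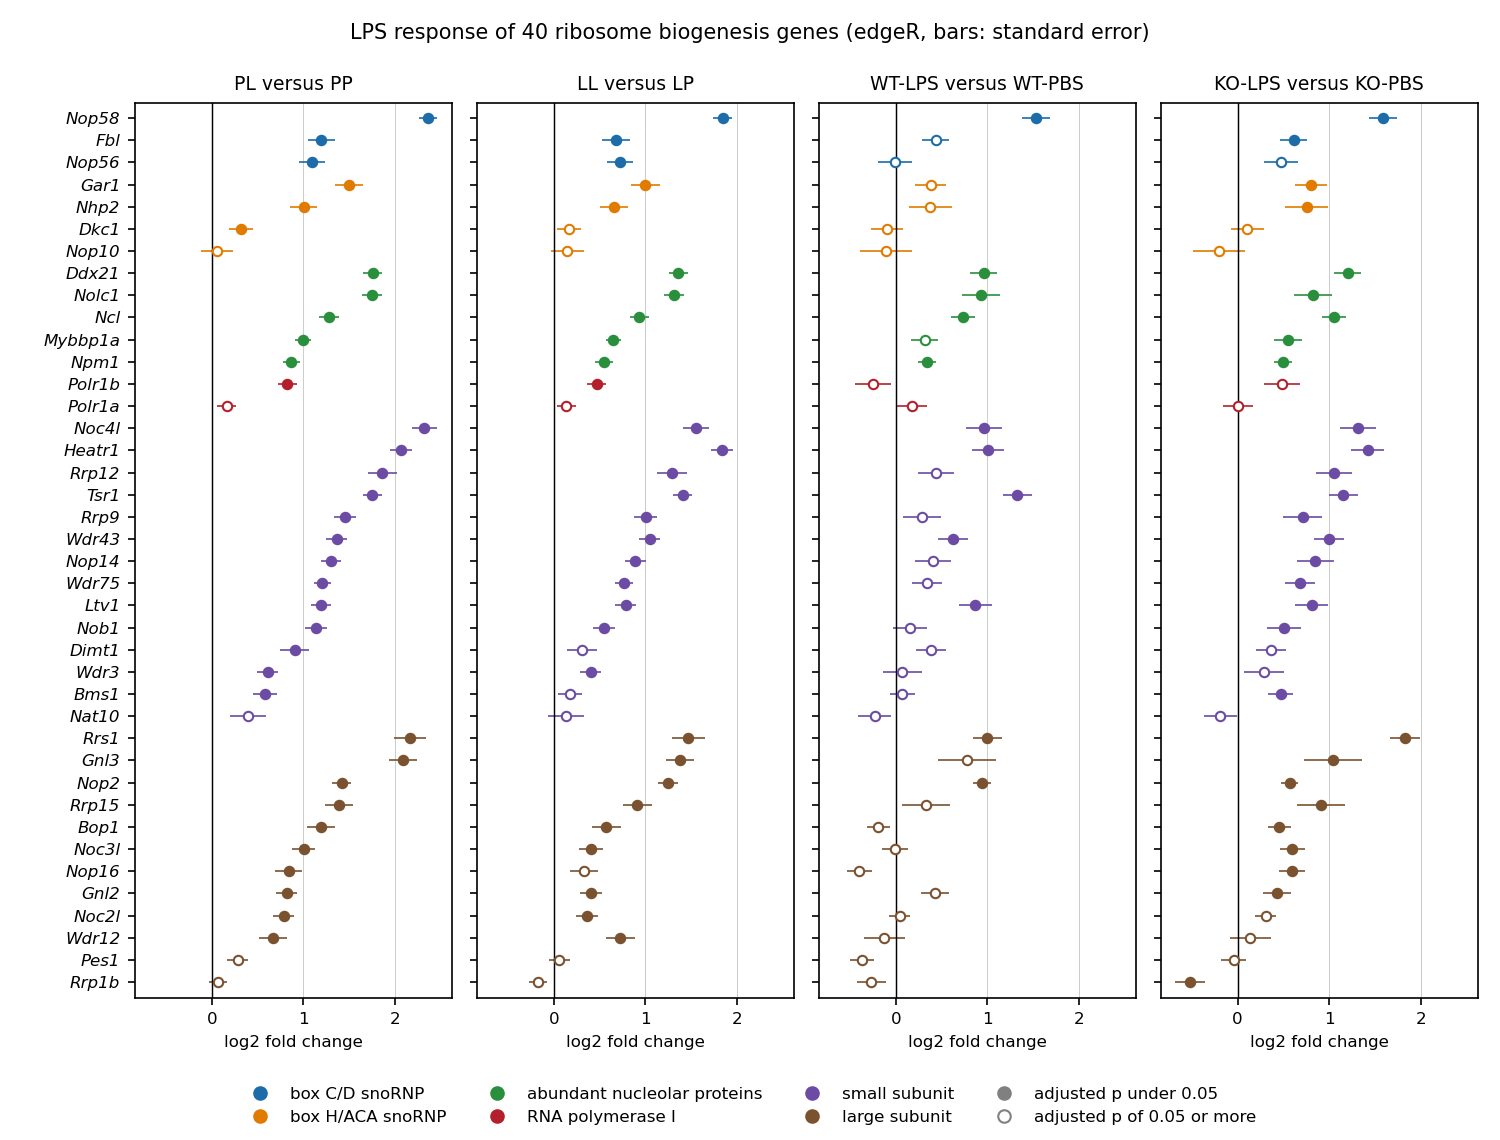
Log2 fold change of each of the 40 members in the 4 LPS contrasts (the first and second challenge of the tolerance model, and LPS against PBS in WT and in KO), with members grouped by role and bars for the standard error. Nop58, Noc4l and Rrs1 lie at the right in PL versus PP with 2.36, 2.32 and 2.16, and Nop10, Rrp1b and Polr1a lie near 0.

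The 2 members that belong to RNA polymerase I differed. Polr1b, the second largest subunit, was at 33.5, 35.6 and 30.9 CPM in PP and 55.6, 63.5 and 58.98 in PL, then 32.1, 35.1 and 35.6 in LP and 51.2, 41.4 and 49.7 in LL, with no overlap at either challenge. Its first response was 0.82 ± 0.11 (SE, adjusted p = 1.82e-05). The largest subunit, Polr1a, was at 57.5, 57.8 and 53.9 CPM in PP and 60.6, 58.5 and 70.6 in PL, then 48.4, 57.0 and 58.996 in LP and 61.6, 57.5 and 62.1 in LL. The PL libraries of Polr1a lay just above those of PP, LL and LP overlapped, and neither difference passed the test (0.16 ± 0.10 and 0.14 ± 0.10, adjusted p = 0.202 and 0.348).

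In the small subunit group, 13 of 14 members rose at the first challenge and 11 at the second. Heatr1 (chr13:12395027-12440289, plus strand), a component of the early processome (the first large assembly on the precursor), was at 96.0, 88.8 and 93.7 CPM in PP and 437, 365 and 359.6 in PL, then 105, 97.4 and 88.6 in LP and 351, 301 and 386 in LL. Its LPS libraries lay far above the others, and LL overlapped PL. The 2 responses were 2.06 ± 0.12 (SE, adjusted p = 8.50e-09) and 1.84 ± 0.12 (SE, adjusted p = 6.15e-08). Wdr43, another processome protein, was at 45.7, 50.5 and 54.9 CPM in PP and 119, 147 and 122 in PL, then 46.4, 51.0 and 52.0 in LP and 101, 94.2 and 114 in LL. Noc4l, which acts in nuclear maturation of the 40S subunit in yeast, was at 17.5, 17.3 and 18.7 CPM in PP and 82.1, 101 and 83.3 in PL, then 16.8, 20.7 and 17.0 in LP and 61.1, 44.6 and 56.5 in LL. Both had separate groups, and Noc4l rose by 2.32 ± 0.14 and 1.55 ± 0.14 (log2, SE; adjusted p = 1.08e-08 and 1.60e-06). Late factors rose as well. Tsr1, a protein of late cytoplasmic 40S precursors, was at 24.3, 24.7 and 24.8 CPM in PP and 83.7, 89.5 and 75.3 in PL, then 26.9, 24.1 and 23.2 in LP and 68.0, 58.4 and 70.5 in LL. Nob1, the endonuclease that makes the 3′ end of 18S rRNA, was at 32.7, 31.2 and 27.2 CPM in PP and 63.0, 77.8 and 60.4 in PL, then 36.3, 35.04 and 32.8 in LP and 56.0, 47.8 and 48.1 in LL. Neither gene had an LPS library within the PBS range. Exons of Tsr1 overlap exons of the antisense gene Srr over 34.2% of their bases, and Dimt1 overlaps Kif2a over 37.3%, so without stated strand use in the counting these 2 are less certain. Nat10, an rRNA acetyltransferase, was the member that did not pass, at 43.3, 42.6 and 61.0 CPM in PP, 44.8, 82.8 and 64.0 in PL, 43.0, 50.7 and 43.2 in LP and 47.1, 47.2 and 57.4 in LL. The PL libraries spread widely and overlapped those of PP.

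Of the 12 large subunit factors, 10 rose at the first challenge and 9 at the second, while Pes1 and Rrp1b passed at neither. Nop2, an rRNA cytosine methyltransferase, was at 90.2, 83.6 and 72.8 CPM in PP and 211, 224 and 227 in PL, then 79.2, 81.0 and 81.8 in LP and 209, 171.3 and 193.7 in LL. Its first response was 1.42 ± 0.10 (SE, adjusted p = 8.16e-08), with no overlap between LPS and PBS libraries. Rrs1 (chr1:9545408-9547455, plus strand), needed for assembly of the 5S particle in yeast, was low at 16.4, 13.6 and 9.15 CPM in PP and reached 52.6, 68.9 and 58.3 in PL, then 13.2, 16.2 and 15.8 in LP and 44.7, 35.2 and 46.1 in LL. Nucleostemin (Gnl3), a nucleolar GTPase, was at 34.7, 36.2 and 43.4 CPM in PP and 130.3, 206 and 147 in PL, then 38.817, 40.8 and 39.2 in LP and 98.2, 101 and 111 in LL. The log2 fold changes of Rrs1 and Gnl3 in PL were 2.16 ± 0.18 and 2.09 ± 0.15 (SE; adjusted p = 2.49e-07 and 8.47e-08). Noc2l, a nuclear export factor in yeast, was at 115, 110.5 and 106 CPM in PP and 161, 226 and 186 in PL, then 108, 122 and 118 in LP and 159.6, 137 and 150.4 in LL. The GTPase Gnl2 was at 58.7, 55.1 and 69.7 CPM in PP and 93.1, 120.0 and 109 in PL, then 66.2, 66.5 and 61.6 in LP and 80.6, 85.4 and 92.4 in LL. For both the PBS and LPS groups were separate, with smaller responses of 0.78 ± 0.12 and 0.82 ± 0.12 (log2, SE; adjusted p = 8.40e-05 and 4.57e-05). Exons of Noc2l overlap the antisense gene Samd11 over 20.9% of their bases.

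The PeBoW complex, which processes the 5.8S and 28S part of the precursor, was not uniform. Its member Bop1 was at 40.04, 34.4 and 30.9 CPM in PP and 68.9, 92.2 and 81.0 in PL, then 32.7, 35.6 and 38.6 in LP and 61.2, 41.2 and 56.5 in LL, and rose by 1.19 ± 0.15 (SE, adjusted p = 1.87e-05) at the first challenge. Wdr12 rose by 0.67 ± 0.15 (SE, adjusted p = 0.00197). Pes1, the third subunit, had 0.28 ± 0.12 (SE, adjusted p = 0.0535) and missed the threshold. Nop16 (chr13:54584185-54590090, minus strand), a nucleolar protein of the 60S pathway, was at 20.8, 17.5 and 15.1 CPM in PP and 31.96, 32.8 and 31.4 in PL, then 19.6, 18.1 and 25.8 in LP and 29.2, 24.5 and 24.4 in LL. Its PL libraries were above all PP libraries, but LL overlapped LP, and only the first response passed (0.84 ± 0.15 and 0.33 ± 0.15, adjusted p = 0.000265 and 0.113).

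**Figure D3:**
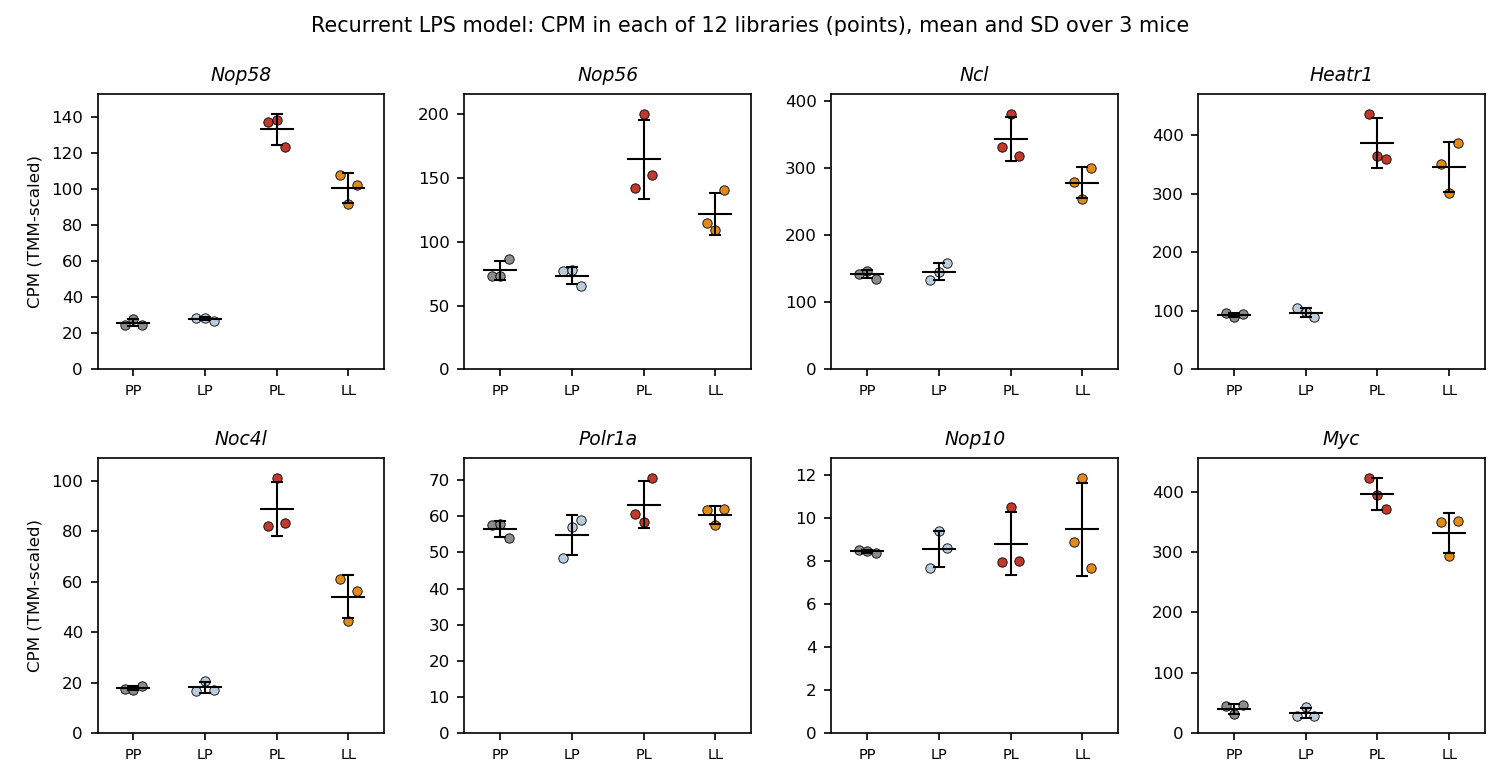
Level in CPM of selected members and of Myc in each library of the tolerance model, by group; points are mice and bars are means with the SD. Levels of Nop58, Heatr1 and Noc4l are high in PL and LL and low in PP and LP, and Nop10 is at 7.68 to 11.9 CPM in all groups.

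Per kilobase of merged exon, levels can be compared between genes only roughly, since not every annotated exon need be transcribed. On this scale the order in PP began with Noc2l at 38.6, Nop2 at 29.7, Mybbp1a at 24.6 and Npm1 at 22.2 CPM per kb. Wdr12 at 1.38 and Nop58 at 2.40 CPM per kb came last. These 2 also have the most annotated exonic bases of the members, 10613 and 9539, and the part of this in their place was not tested. In PL, Nop2 led at 79.6 CPM per kb, then Noc2l at 66.5 and Ddx21 at 55.4. Most neighbours in these orders could not be separated, since the library ranges of 31 of 39 neighbouring pairs in PP and 36 in PL overlapped.

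At 4 weeks after a single LPS injection, no member differed between LP and PP by edgeR's quasi-likelihood test, in which 0% of all genes tested were higher and 0% lower. Their median log2 fold change was 0.082, against 0.014 for all genes tested, and the values ran from -0.086 (Wdr12) to 0.30 (Noc3l). At an unadjusted p under 0.05, 1 member, Noc3l, was higher, against 3.77% of all genes tested. DESeq2, limma with and without surrogate variables, and every fit with 1 library left out also called none. For 1 member, Nob1, every LP library lay above every PP library, which held for 4.78% of all genes tested.

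The second challenge asked whether earlier LPS changes the response. In LL, 31 of 40 members were higher than in LP and none was lower (also none at an unadjusted p under 0.05, against 22.0% of all genes tested), where 15.4% of all genes tested were higher and 15.9% were lower. The median log2 fold change was 0.70, against -0.062 for all genes tested. The 31 were all among the 35 that rose at the first challenge, and Dkc1, Bms1, Dimt1 and Nop16 rose at the first challenge and did not pass at the second. Since the 35 are most of the members, a large overlap follows from their number, and the overlap among all genes tested was not counted. The mean summed level went from 1787 CPM in LP to 3258 in LL, a 1.82-fold difference (SD 0.14). Without single libraries, 27 to 31 members were higher, and 26 of the 31 calls were made each time. Among the members described above, Bop1 did not pass without LP replicate 1 or LL replicate 1 (adjusted p = 0.0522 and 0.0539), nor Gnl2 without LP or LL replicate 3 (0.0569 and 0.0698). Noc2l did not pass without any 1 of LP replicates 1 to 3 or LL replicates 1 and 3 (0.0581 to 0.122). Against PP, 34 members were higher in LL, where 17.2% of all genes tested were higher and 18.6% lower.

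Compared directly, most members had lower values in LL than in PL. Of the 40 members, 39 had a negative log2 fold change in LL versus PL, with a median of -0.33 against -0.014 for all genes tested, and 28 had all LL libraries below all PL libraries, which held for 15.7% of all genes tested. Fewer passed the test. Noc4l (-0.72), Gnl3 (-0.64), Bop1 (-0.61), Nop58 (-0.40) and Nob1 (-0.40) were lower (log2; adjusted p = 0.00423, 0.0166, 0.0271, 0.0197 and 0.0474), where 4.73% of all genes tested were lower. None was higher, against 3.62% of all genes tested, and 1 member, Nop10, had a value above 0. Noc4l alone passed in every fit with 1 library left out. The count of lower members was 10 without PP replicate 3, 9 without PL replicate 1, 2 without PL replicate 2, 3 without LL replicate 1, 1 without LL replicate 2 and 3 without LL replicate 3. Of the 5, Nop58 and Bop1 did not pass without PL replicate 2 or LL replicate 2 or 3, and Gnl3 did not without LL replicate 1 or 2. Nob1 passed only without PP replicate 3 or PL replicate 3.

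The difference between the 2 responses, (LL - LP) - (PL - PP), was tested as an interaction. It was below 0 for 38 of 40 members, with a median of -0.40 on the log2 scale against -0.023 for all genes tested. No single member passed the edgeR test in either direction. At an unadjusted p under 0.05, 27 were lower and none was higher, against 7.95% and 7.33% of all genes tested. After adjustment, 1.46% of all genes tested passed as lower and 0.335% as higher. The smallest p values belonged to Noc4l (-0.77 ± 0.19, SE, adjusted p = 0.0638), Nop58 (-0.51 ± 0.14, SE, adjusted p = 0.083) and Nob1 (-0.59 ± 0.17, SE, adjusted p = 0.0944). DESeq2 called 1 member lower, limma with surrogate variables 4 and limma without them 2. Without PL replicate 3 the edgeR test called 1. The 2 members above 0 were Wdr12 and Nop10, at 0.057 ± 0.22 and 0.091 ± 0.25.

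In the training model, the same 3 h challenge was given to control littermates. In WT-LPS, 12 of 40 members were higher than in WT-PBS and none was lower (Nop16 and Pes1 were lower at an unadjusted p under 0.05, as were 15.8% of all genes tested, and DESeq2 called 1 lower), where 10.7% of all genes tested were higher and 9.15% lower. The median log2 fold change was 0.34, against 0.021 for all genes tested. The 12 were Nop58, Ncl, Npm1, Nolc1, Ddx21, Wdr43, Heatr1, Noc4l, Tsr1, Ltv1, Nop2 and Rrs1, and all 12 were also among the 35 that rose in PL. A large overlap follows from the number 35, which is most of the members, and that among all genes tested was not counted. Without WT-PBS-175, which had high levels of the members, 20 were higher and 1 was lower, with a median of 0.47. The count of lower members was also 1 without KO-PBS-641 or WT-LPS-149. With each of the other libraries left out, 10 to 13 were higher. Of the 12 calls, 10 were made in every fit with 1 library left out. Summed levels were 1302, 1284 and 1704 CPM in WT-PBS and 2173, 1849 and 1932 in WT-LPS, a 1.39-fold difference (SD 0.26), or 1.53-fold (SD 0.13) without WT-PBS-175.

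In the KO mice, 28 members were higher in KO-LPS than in KO-PBS and 1, Rrp1b, was lower, where 17.7% of all genes tested were higher and 19.3% lower. The median was 0.59, against -0.0037 for all genes tested. All 28 were also among the 35 that rose in PL, and the 12 of the WT comparison were among the 28. Both larger sets hold most of the members, so much overlap follows from their size, and that among all genes tested was not counted. Summed levels were 1436, 1371 and 1464 CPM in KO-PBS and 2107, 2331 and 2568 in KO-LPS, a 1.64-fold difference (SD 0.17). Scaling by plain library totals in place of TMM moved the median of all genes tested to -0.26 and the members' median to 0.34, and 13 members were then higher. Without single libraries, 20 to 31 were higher. Of the 29 calls, that of Rrp1b included, 19 were made in each of these fits. Rrp1b did not pass without KO-PBS-638 or KO-PBS-642 or KO-LPS-193 or KO-LPS-194.

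Nop58 again had one of the largest responses in both genotypes. It was at 25.3, 24.1 and 26.8 CPM in WT-PBS and 87.6, 63.3 and 69.3 in WT-LPS, then 23.95, 22.3 and 31.6 in KO-PBS and 72.6, 79.7 and 82.3 in KO-LPS. LPS and PBS libraries did not overlap, and WT and KO overlapped under each treatment. The responses were 1.53 ± 0.15 (SE, adjusted p = 3.25e-05) in WT and 1.59 ± 0.15 (SE, adjusted p = 1.05e-05) in KO. Fbl was at 23.1, 27.3 and 34.2 CPM in WT-PBS and 41.4, 34.99 and 38.0 in WT-LPS, then 24.95, 19.1 and 23.0 in KO-PBS and 34.7, 35.2 and 32.6 in KO-LPS. Nop56 was at 42.7, 43.1 and 59.01 CPM in WT-PBS and 55.9, 46.9 and 41.2 in WT-LPS, then 50.5, 42.1 and 55.9 in KO-PBS and 59.6, 59.5 and 86.7 in KO-LPS. Of the 2, Fbl passed in KO only, with 0.61 ± 0.15 (SE, adjusted p = 0.00721) against 0.43 ± 0.15 (SE, adjusted p = 0.0603) in WT, and Nop56 passed in neither.

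Of the 4 H/ACA genes none passed in WT, while Gar1 and Nhp2 rose in KO. Gar1, an RNA-binding protein of the particle, was at 7.26, 7.15 and 8.74 CPM in WT-PBS and 11.7, 9.67 and 8.91 in WT-LPS, then 5.30, 6.74 and 6.25 in KO-PBS and 10.5, 9.27 and 12.1 in KO-LPS. Its KO response of 0.80 ± 0.17 (SE, adjusted p = 0.0031) passed in 12 of 12 fits with 1 library left out. Nhp2 was at 5.67, 8.56 and 11.9 CPM in WT-PBS and 9.14, 12.1 and 12.8 in WT-LPS, then 8.30, 9.03 and 8.97 in KO-PBS and 15.5, 12.3 and 16.5 in KO-LPS. The KO groups were separate, with a log2 fold change of 0.75 ± 0.24 (SE, adjusted p = 0.0258) that did not pass without any 1 KO-PBS replicate or KO-LPS-193 or KO-LPS-600 (adjusted p = 0.0592 to 0.0813). Dkc1 was at 14.8, 14.4 and 19.7 CPM in WT-PBS, 13.2, 14.7 and 17.97 in WT-LPS, 14.7, 12.2 and 12.6 in KO-PBS and 12.6, 13.1 and 16.9 in KO-LPS. Nop10 was at 5.49, 6.48 and 3.81 CPM in WT-PBS, 4.27, 5.31 and 5.02 in WT-LPS, 6.49, 5.29 and 9.36 in KO-PBS and 7.22, 7.12 and 4.07 in KO-LPS. Both overlapped between all groups and passed in no comparison of this model.

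Abundant nucleolar genes rose in both genotypes, except Mybbp1a, which passed in KO only. Ncl was at 121, 104 and 141 CPM in WT-PBS and 209, 198 and 202 in WT-LPS, then 129, 135 and 129.6 in KO-PBS and 241, 257 and 317 in KO-LPS. Ddx21 was at 68.7, 64.2 and 95.6 CPM in WT-PBS and 164, 138 and 142 in WT-LPS, then 74.9, 74.3 and 78.7 in KO-PBS and 160.4, 172 and 191 in KO-LPS. Mybbp1a was at 90.8, 89.2 and 124 CPM in WT-PBS and 140.5, 117 and 121 in WT-LPS, then 105, 111 and 107 in KO-PBS and 132, 154 and 185.04 in KO-LPS. For Ncl and Ddx21 the LPS libraries of each genotype lay above its PBS libraries, and for Mybbp1a the third WT-PBS library, WT-PBS-175, reached into the WT-LPS range. The KO response of Mybbp1a (0.55 ± 0.15, SE, adjusted p = 0.0133) did not pass without KO-LPS-600 (adjusted p = 0.0560). Responses of Ncl and Ddx21 were 0.73 ± 0.13 and 0.96 ± 0.14 in WT (log2, SE; adjusted p = 0.00206 and 0.000672) and 1.05 ± 0.13 and 1.20 ± 0.14 in KO (adjusted p = 7.05e-05 and 5.83e-05).

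Npm1 differed by genotype at rest. It was at 70.7, 73.2 and 74.1 CPM in WT-PBS and 103, 101 and 116 in KO-PBS, then 96.3, 82.9 and 96.8 in WT-LPS and 149.9, 143 and 156 in KO-LPS. Every KO library lay above every WT library of the same treatment. The genotype difference was 0.55 ± 0.097 (SE, adjusted p = 0.0033) with PBS and 0.70 ± 0.097 (SE, adjusted p = 0.000262) with LPS, and both passed with each library left out. The LPS response of Npm1 in WT was 0.34 ± 0.097 (SE, adjusted p = 0.0277) and did not pass without WT-PBS-170 or WT-PBS-171 or WT-LPS-149 or WT-LPS-185 (adjusted p = 0.0847 to 0.107). Npm1 had counts that were not whole in all 12 training libraries, so part of its reads may be shared with other places.

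Neither polymerase I subunit passed in WT or in KO. Polr1a was at 51.4, 54.6 and 81.1 CPM in WT-PBS, 76.3, 65.3 and 70.0 in WT-LPS, 61.6, 63.0 and 58.3 in KO-PBS and 53.4, 61.2 and 68.5 in KO-LPS. Polr1b was at 27.8, 27.7 and 46.6 CPM in WT-PBS, 30.02, 26.1 and 30.1 in WT-LPS, 26.98, 24.9 and 20.6 in KO-PBS and 28.9, 35.8 and 36.6 in KO-LPS. Polr1b had separate KO groups but an adjusted p of 0.0743.

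Small subunit factors gave 5 of 14 higher members in WT and 11 in KO. Heatr1 was at 81.9, 81.3 and 127 CPM in WT-PBS and 228, 179.8 and 176 in WT-LPS, then 85.2, 83.0 and 83.0 in KO-PBS and 212, 255 and 203 in KO-LPS. Wdr43 was at 39.1, 40.1 and 51.4 CPM in WT-PBS and 80.0, 62.4 and 59.4 in WT-LPS, then 51.3, 39.8 and 44.2 in KO-PBS and 75.6, 91.5 and 104 in KO-LPS. In both genes WT-PBS-175 was the highest WT-PBS library, and LPS and PBS libraries were separate in each genotype. Wdr43 had 0.63 ± 0.16 (SE, adjusted p = 0.0179) in WT, which did not pass without WT-PBS-170 or WT-PBS-171 or WT-LPS-149 (adjusted p = 0.0663 to 0.0879). Noc4l was at 14.1, 15.7 and 23.1 CPM in WT-PBS and 40.7, 31.8 and 30.8 in WT-LPS, then 18.4, 13.7 and 17.6 in KO-PBS and 35.5, 42.7 and 45.8 in KO-LPS. Tsr1 was at 14.4, 15.6 and 20.6 CPM in WT-PBS and 48.3, 38.3 and 40.2 in WT-LPS, then 20.9, 23.2 and 24.4 in KO-PBS and 43.1, 54.6 and 54.6 in KO-LPS. Both again showed separate groups, with WT responses of 0.97 ± 0.20 and 1.32 ± 0.16 (log2, SE; adjusted p = 0.00488 and 0.000131). Nob1 was at 22.0, 16.7 and 24.02 CPM in WT-PBS and 24.02, 20.2 and 25.8 in WT-LPS, then 18.9, 14.2 and 18.2 in KO-PBS and 20.5, 22.7 and 29.9 in KO-LPS. Nat10 was at 34.6, 26.3 and 46.1 CPM in WT-PBS and 30.2, 33.1 and 27.9 in WT-LPS, then 33.1, 36.3 and 38.2 in KO-PBS and 27.1, 33.0 and 34.3 in KO-LPS. Nob1 only just passed in KO (0.51 ± 0.19, SE, adjusted p = 0.049) and did not pass in 9 of the 12 fits with 1 library left out, namely those without WT-PBS-170, any 1 KO-PBS or WT-LPS replicate, or KO-LPS-194 or KO-LPS-600. Nat10 overlapped in both genotypes and passed in neither.

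**Figure D4:**
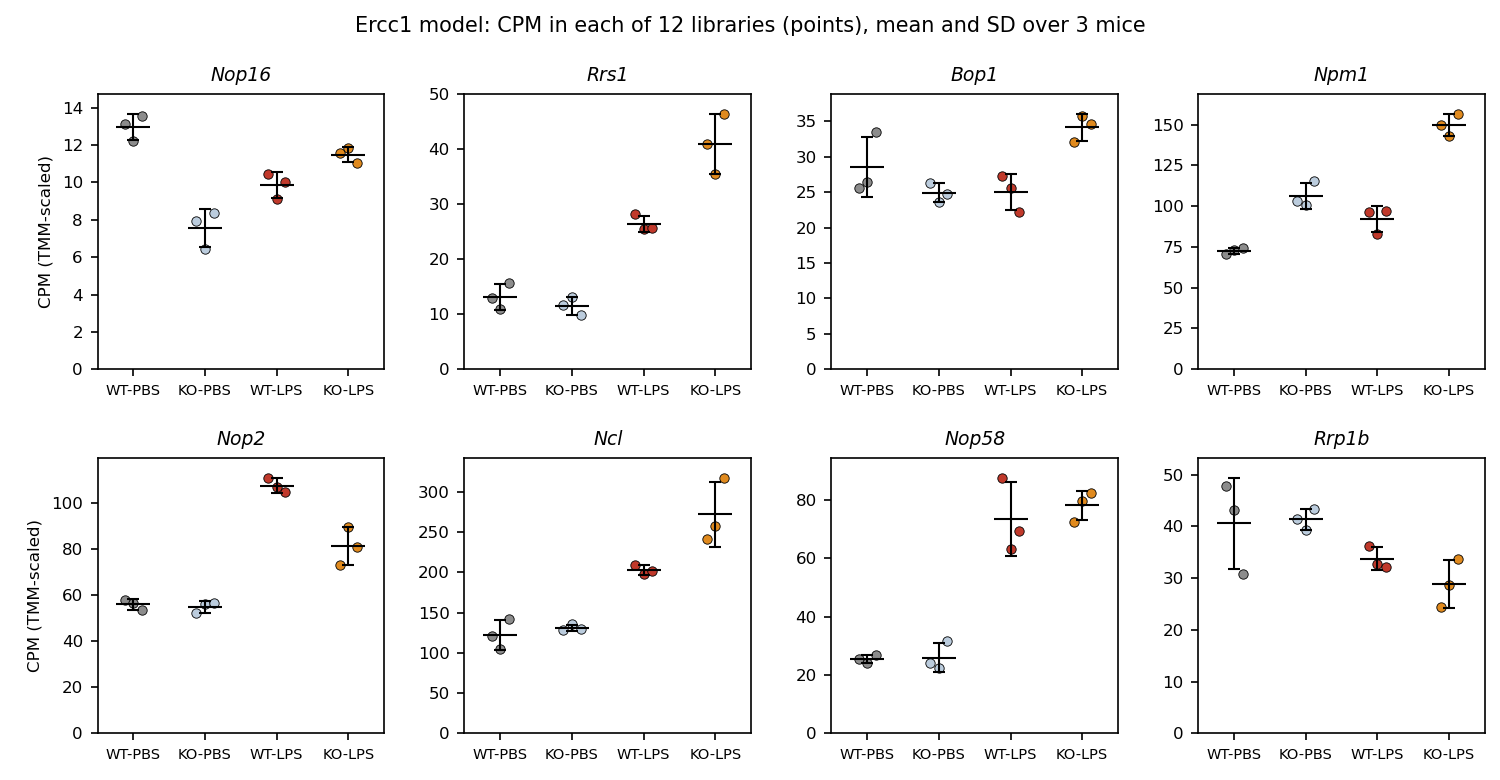
Level in CPM of 8 members in each library of the training model, by group; points are mice and bars are means with the SD. LPS groups lie above PBS groups for Nop58 and Rrs1, Npm1 is higher in KO than in WT under both treatments, and Nop16 is lowest in KO-PBS at 6.43 to 8.37 CPM.

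Large subunit factors gave 2 higher members in WT (Nop2 and Rrs1) and 8 in KO. Nop2 was at 58.1, 56.5 and 53.6 CPM in WT-PBS and 111, 107 and 105 in WT-LPS, then 52.1, 56.1 and 56.6 in KO-PBS and 73.2, 89.7 and 81.0 in KO-LPS. After LPS it was the only member lower in KO than in WT (-0.40 ± 0.096, SE, adjusted p = 0.00786), with no overlap, and the WT response of 0.94 ± 0.097 was set against a KO response of 0.57 ± 0.096, without a significant difference between them (adjusted p = 0.136). Rrs1 was at 13.03, 10.9 and 15.7 CPM in WT-PBS and 28.1, 25.5 and 25.6 in WT-LPS, then 11.6, 13.2 and 9.91 in KO-PBS and 41.0, 35.4 and 46.4 in KO-LPS. All 3 KO-LPS libraries of Rrs1 lay above all WT-LPS libraries, a difference of 0.63 ± 0.16 (SE, adjusted p = 0.0105). Bop1 was at 25.6, 26.5 and 33.4 CPM in WT-PBS and 27.2, 25.5 and 22.2 in WT-LPS, then 26.3, 23.7 and 24.8 in KO-PBS and 32.1, 35.8 and 34.6 in KO-LPS. In WT the Bop1 libraries overlapped, and KO-LPS lay above KO-PBS and WT-LPS, while the third WT-PBS library, WT-PBS-175, lay within the KO-LPS range. Its KO response (0.45 ± 0.13, SE, adjusted p = 0.0149) did not pass without KO-PBS-641 or KO-LPS-194 (adjusted p = 0.0558 and 0.0530).

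Gnl3 was at 12.7, 14.4 and 30.3 CPM in WT-PBS and 39.4, 30.4 and 29.1 in WT-LPS, then 26.0, 18.6 and 21.3 in KO-PBS and 32.8, 39.998 and 63.1 in KO-LPS. Gnl2 was at 31.9, 30.6 and 40.8 CPM in WT-PBS and 47.7, 41.4 and 49.8 in WT-LPS, then 40.1, 37.7 and 39.5 in KO-PBS and 43.8, 49.4 and 64.6 in KO-LPS. Noc2l was at 86.5, 84.6 and 93.2 CPM in WT-PBS and 95.6, 79.7 and 97.0 in WT-LPS, then 83.0, 72.3 and 86.4 in KO-PBS and 90.0, 97.3 and 111 in KO-LPS. None of the 3 passed in WT, Gnl3 and Gnl2 passed in KO (1.04 ± 0.32 and 0.43 ± 0.15, log2 and SE, adjusted p = 0.0217 and 0.0462), and Noc2l did not (0.059). The KO call of Gnl3 was lost without KO-PBS-641 or KO-PBS-642 or KO-LPS-600, and that of Gnl2 without WT-PBS-170, any 1 KO-PBS or WT-LPS replicate, or KO-LPS-194 or KO-LPS-600.

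Between genotypes, 2 members differed after PBS. In KO-PBS versus WT-PBS, Npm1 was higher and Nop16 was lower, where 8.19% of all genes tested were higher and 3.37% lower, and the members' median was -0.060 against -0.016 for all genes tested. Tsr1, with the next smallest p, was higher in every KO-PBS library but did not pass (0.44 ± 0.16, SE, adjusted p = 0.1). Without WT-PBS-175, 2 members were higher and 1 was lower, and the members' median was 0.060. After LPS, 6 members were higher in KO than in WT (Npm1, Ncl, Noc3l, Bop1, Rrs1 and Bms1) and Nop2 was lower, where 13.4% of all genes tested were higher and 13.6% lower. The median was 0.23 against -0.041. The share of higher members, 6 of 40, was near that of all genes. The count was 12 without WT-PBS-175, 2 without WT-LPS-184 or WT-LPS-185 or KO-LPS-600 and 3 without KO-LPS-194, and with plain library totals it was 2. Ncl did not pass without any 1 WT-LPS replicate or KO-LPS-600, and Bop1 did not without WT-LPS-184 or WT-LPS-185 or KO-LPS-194 or KO-LPS-600. Bms1 and Noc3l each passed in 8 of the 12 fits with 1 library left out, those without WT-LPS-184, WT-LPS-185, KO-LPS-194 or KO-LPS-600 being the exceptions.

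Nop16 was the only member that passed the test of a different LPS response between genotypes. It was at 13.1, 12.2 and 13.6 CPM in WT-PBS and 10.5, 9.09 and 10.01 in WT-LPS, then 7.95, 6.43 and 8.37 in KO-PBS and 11.6, 11.8 and 11.03 in KO-LPS. All WT-LPS libraries lay below all WT-PBS libraries, and all KO-LPS libraries lay above all KO-PBS libraries. The log2 fold change was -0.40 ± 0.14 (SE, adjusted p = 0.0603) in WT and 0.59 ± 0.14 (SE, adjusted p = 0.00528) in KO, and the difference was 0.99 ± 0.19 (SE, adjusted p = 0.0168). Without WT-LPS-184 the difference did not pass (adjusted p = 0.0589). Of all genes tested, 1.55% passed this interaction as higher in KO and 3.08% as lower. For 32 of 40 members the response was larger in KO, with a median difference of 0.29 against -0.040 for all genes tested, and at an unadjusted p under 0.05 it was larger for 6 members and smaller for 1, against 8.38% and 12.3% of all genes tested. Rrs1 (0.83 ± 0.23, SE, adjusted p = 0.0572) and Bop1 (0.64 ± 0.18, SE, adjusted p = 0.0638) followed Nop16 in the order of p. Without WT-PBS-175 the median difference was 0.17 and 2 members passed, and 2 also passed without WT-PBS-171.

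The kept response was then compared between the models. It was defined per member as the log2 fold change of the preconditioned state over that of the naive state, LL versus LP over PL versus PP in the tolerance model and KO over WT in the training model, for members that rose in the naive state. Over the 35 such members of the tolerance model, the median kept share was 0.661, with a range from 0.308 (Bms1) to 1.09 (Wdr12), against a median of 0.622 for all 4189 genes that rose in PL. The quartiles were 0.542 and 0.714, and 1 member, Wdr12, was above 1. Without LL replicate 1, Pes1 joined the members that rose, and its share of -0.023 became the lowest. Over the 12 such members of the training model, the median was 1.31, with a range from 0.601 (Nop2) to 1.83 (Rrs1), against 0.8995 for all 1861 genes that rose in WT-LPS. In this model 8 of 12 members were above 1. Without WT-PBS-175 there were 20 such members, with a median of 1.12, a range from 0.121 (Polr1a) to 1.64 (Rrs1) and 13 above 1, against 0.865 for all genes that rose. With plain library totals the median was 1.09, and 5 of 10 members were above 1. Genes were selected by the first response, which enters the ratio, so the shares are a description, and the 2 models were not tested against each other.

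**Figure D5:**
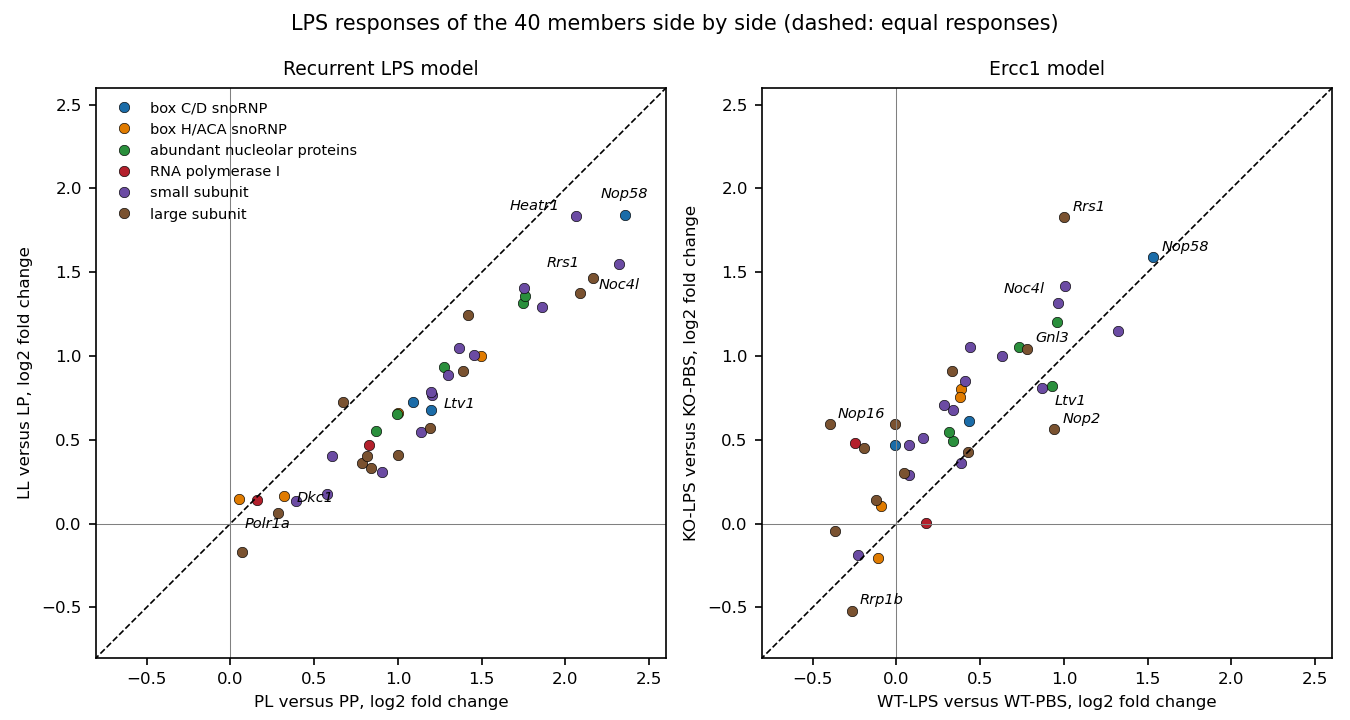
Log2 fold change of each member in the preconditioned state against the naive state, LL versus LP against PL versus PP at the left and KO against WT at the right, with the line of equal response. In the tolerance model 38 of 40 members lie below the line, and in the training model 32 of 40 lie above it.

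For the 12 members that rose in all 4 LPS contrasts (Ddx21, Heatr1, Ltv1, Ncl, Noc4l, Nolc1, Nop2, Nop58, Npm1, Rrs1, Tsr1 and Wdr43), the values can be set side by side. Heatr1 kept 0.890 of its response at the second injection and had a KO response 1.41 times the WT response. Nop58 kept 0.782, with a KO to WT ratio of 1.04. Noc4l kept 0.667, with a ratio of 1.36, and Rrs1 kept 0.678, with a ratio of 1.83. Nop2, which kept 0.878 in the tolerance model, had the lowest ratio of the 12 in the training model. Without WT-PBS-175 the KO to WT ratios were 1.17 for Heatr1, 1.04 for Nop58, 1.13 for Noc4l, 1.64 for Rrs1 and 0.675 for Nop2, and 19 members rose in all 4 contrasts. A further 14 members rose in 3 of the 4 contrasts, 7 in 2, 2 in 1, and 5 (Nat10, Nop10, Pes1, Polr1a and Rrp1b) in none. The matching shares of all genes tested were not counted, so these joint counts are a description of the members only. Across the 40 members, the log2 fold changes of PL versus PP correlated with those of WT-LPS versus WT-PBS (Pearson r = 0.82) and of KO-LPS versus KO-PBS (r = 0.93), as a description across genes that share their libraries within each model. The 2 interactions, second minus first and KO minus WT, had r = -0.46 across the same 40. Without WT-PBS-175 the r with the WT response was 0.85, and that of the 2 interactions was -0.40.

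Genes related to the members were followed for comparison. In a list of 98 other biogenesis factors, 80 rose in PL (median log2 fold change 0.71), 62 in LL versus LP, 18 in WT and 54 in KO, and 2 were lower in WT and 1 in KO. Without WT-PBS-175, 34 rose in WT. The 3 with the largest first response were Kri1, Utp4 and Nol10, nucleolar proteins of subunit assembly, at 2.27 ± 0.16, 2.01 ± 0.15 and 1.93 ± 0.15 (log2, SE; adjusted p = 7.98e-08, 1.11e-07 and 1.37e-07). Kri1 was at 30.7, 33.7 and 33.7 CPM in PP and 122, 192 and 159 in PL, with no overlap. Among 14 other genes of RNA polymerase I and its factors, 11 rose in PL, 5 in LL versus LP, 2 in WT, where 1 fell, and 3 in KO. Of 14 RNA exosome genes, which trim rRNA, 8 rose and 1 fell in PL, 4 rose and 1 fell in LL versus LP, 4 rose and 2 fell in WT and 3 rose and 2 fell in KO.

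Ribosomal protein genes followed another pattern. Of 78, 59 rose in PL with a median of 0.50 and 9 in LL versus LP, while 2 rose in WT and 13 in KO, or 6 and 38 without WT-PBS-175. By genotype, 74 of 78 were higher in KO-PBS than in WT-PBS (median 0.78) and 78 of 78 after LPS (median 0.82), in comparisons where 1 and 6 of the 40 members were higher. Proliferation genes were higher in KO-PBS for 26 of 28, with a median of 2.23. In PL, 2 of 22 proliferation genes were higher and 5 were lower. Their part in the members' values was not tested.

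Myc rose with the members at each challenge. It was at 44.5, 31.0 and 46.3 CPM in PP and 423, 394 and 371 in PL, then 28.9, 43.3 and 28.8 in LP and 350.4, 293 and 352 in LL. The LPS libraries were all above 290 CPM and the others all under 47. Its responses were 3.30 ± 0.18 (SE, adjusted p = 6.24e-09) and 3.27 ± 0.18 (SE, adjusted p = 1.60e-08), with a difference of -0.027 ± 0.24 (SE, adjusted p = 0.986). The members' median of the same difference was -0.40. In the training model Myc was at 30.8, 23.7 and 131 CPM in WT-PBS, where WT-PBS-175 had the highest value, and 222, 181 and 213 in WT-LPS, then 79.3, 53.9 and 48.7 in KO-PBS and 205, 218.8 and 189 in KO-LPS. The responses were 1.73 ± 0.49 (SE, adjusted p = 0.0269) in WT and 1.75 ± 0.49 (SE, adjusted p = 0.0144) in KO. Without WT-PBS-175 the WT response was 2.91 ± 0.21 (SE, adjusted p = 7.89e-07), the KO response was smaller by the test of the difference (-1.11 ± 0.25, adjusted p = 0.0210), and Myc was higher in KO-PBS than in WT-PBS by 1.13 ± 0.19 (adjusted p = 0.00189). With that library in, neither difference passed. The WT response did not pass without WT-PBS-170, WT-PBS-171, WT-LPS-149 or WT-LPS-185 (adjusted p = 0.0671 to 0.0832), nor the KO response without KO-PBS-641 or KO-PBS-642 (0.0533 and 0.0587). Of 10 genes of the Myc network, Mxd4, an antagonist of Myc at E-boxes, fell at both challenges (-2.45 and -1.66, log2, adjusted p = 1.61e-08 and 1.32e-06), and in all 1 rose and 4 fell in PL, 1 rose and 3 fell in LL versus LP, 1 rose and 2 fell in WT, and 2 rose and 2 fell in KO.

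Over the 12 tolerance libraries, the members' scaled log2 levels followed their own mean closely, with a median r of 0.97 and r above 0.9 for 30 of 40. Rrp1b, at r = -0.062, did not follow it. Outside the list, the 10 genes most like the members' mean were Ftsj3 (r = 0.996), Tma16, Unc5cl, Pa2g4, Kri1, Prpf31, Ppan, Mt2, Gm45774 and Tbrg4 (r = 0.989), of which Ftsj3, Kri1 and Ppan belong to the list of other biogenesis factors. The 12 points of each correlation share the division into LPS and PBS libraries, and no test was made.

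Open chromatin and histone marks at the members' starts were read from peak lists, each from 1 pooled library per group (2 mice for ATAC, 5 for each mark), so differences have no replicate check. Within 1000 bases of a start, all 40 members had an ATAC peak in each of 8 groups, against 79.0% to 90.4% of tested genes. All 40 also had H3K4me3, a mark of active starts, and H3K27ac, a mark of active promoters and enhancers, in each of the 6 groups measured (91.5% to 94.6% and 80.7% to 91.1% of tested genes). No member gained or lost such a peak with LPS or genotype. For H3K4me1 the names of the lists and the titles of the samples give opposite genotypes, and the titles were followed, so the assignment to WT and KO is uncertain. H3K4me1 was present at 39 members in WT-PBS, with Wdr75 the exception, and at 40 in KO-PBS, against 89.6% and 92.4% of tested genes. The Polycomb mark H3K27me3 lay within 1000 bases of the starts of 8 members in WT-PBS and 7 in KO-PBS, against 26.5% and 25.02% of tested genes. These were Nop58, Nop56, Dkc1, Gar1, Npm1, Ltv1, Nob1 and Pes1, without Nop58 in KO-PBS, and the regions were broad, with a median width of 155800 bases in WT-PBS.

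Peak widths at the members' starts differed between marks. For H3K27ac, from PP to PL, 24 were wider and 11 narrower, against 37.4% wider and 33.5% narrower among 10940 tested genes with a peak in both. From LP to LL, 26 were wider and 5 narrower, against 36.2% and 34.8%. From PP to LP, with no recent LPS, 17 were wider and 9 narrower, against 43.8% and 23.9%. For H3K4me3, 13 were wider and 13 narrower from PP to PL (30.1% and 38.2% of tested genes), and 17 were wider and 6 narrower from LP to LL (38.6% and 28.5%). At Nop58 the H3K27ac peak spanned 1400 bases in PP, 2000 in PL, 1200 in LP and 1600 in LL, and at Heatr1 1400, 2400, 2000 and 2400 bases. At Nop10, whose RNA did not change by the test, the H3K27ac peak spanned 400 bases in PP and 600 in each of the other 3 groups. ATAC peaks at the starts were wider for 24 members and narrower for 13 from PP to PL, against 55.9% and 43.7% of tested genes, and wider for 33 and narrower for 7 from LP to LL, against 62.1% and 37.4%. From WT-PBS to WT-LPS, 40 were wider and none was narrower, where 97.0% of tested genes were wider, and from KO-PBS to KO-LPS 23 were wider and 17 narrower, against 52.6% and 47.1%. The ATAC lists held 36412 to 71667 peaks, and the part of list size in these widths was not tested. For the histone marks the authors adjusted the peak calling by eye for each sample. The part of this in the widths was not tested either.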

How the data were processed

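RNA was sequenced from 24 sorted microglia libraries, 12 per model. The authors trimmed reads with bbduk, aligned them to GRCm38 with STAR (2.7.3a) and counted them per gene with featureCounts (2.0.0). The deposited values are estimated counts that are not always whole, and how reads shared between places were counted is not given in the sources used here. They stand beside each gene's exon length. Whether counting used strand is not given in the sources used here. Of 55536 gene IDs, 55450 matched a symbol. The authors called ATAC peaks with Genrich (0.5) after Bowtie2 (2.3.5.1) and histone regions with SPAN, whose settings they adjusted by eye for each sample. Both came from pooled mice, and the deposited lists give a score, a signal value and −log10 p and q values per peak. In the histone lists the signal value at the members' starts was 0. A total of 0 columns of per-sample values were left unmapped.

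Counts were rounded, filtered by filterByExpr (16096 and 17460 genes kept), scaled by TMM and tested per model with edgeR's quasi-likelihood test (4.0.16) in R (4.3.3). P-values were adjusted over all genes tested by Benjamini-Hochberg, with a threshold of 0.05, and standard errors were derived from the fold change and the F statistic. No source says that the mice of a group came from separate litters or days, so p-values measure the spread between these mice. Alternatives were RLE scaling, plain library totals, DESeq2 (1.42.0), no filter, 1 CPM in 3 libraries, limma (3.58.1) with and without sva (3.50.0; 2 surrogate variables in the tolerance model, and 3 of 4 estimated in the training model), the compared groups alone, a replicate block and each library left out. The fits were also run on simulated counts, with 200 genes changed in PL or KO-LPS only. Far more genes changed in the real data, so the simulation does not show how the fits perform on them. In the tolerance model, deviations of same-numbered libraries from their group means had a median r of -0.013 over 18 pairs, with 7 above 0.1, so the numbers were not taken to pair the mice.

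Values in every library were given for members with the highest mean level in their role, the largest or smallest first response, or one of the 3 smallest p in an interaction, a genotype comparison or LL versus PL. Myc and the 3 other biogenesis factors with the largest first response were added, and further genes named were chosen after their values were seen. The members, the pathway lists (other biogenesis factors, RNA polymerase I, exosome, Myc network, ribosomal proteins, proliferation) and the cell type markers were chosen with earlier results of these data known. A start held a peak where 1 base or more of it lay within 1000 bases.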

Additional observations from a re-analysis of the deposited data

Results flagged for a closer look

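A single result was listed because an effect differed between genotypes by the test of the difference itself. This was 1 of 40 members, where 1.55% of all genes tested passed as higher and 3.08% as lower, so the members' share was not unusual. The LPS response of Nop16 differed between KO and WT by 0.991 on the log2 scale in edgeR's quasi-likelihood test (adjusted p = 0.0168). All 3 WT-LPS libraries lay below all 3 WT-PBS libraries, and all 3 KO-LPS libraries lay above all 3 KO-PBS libraries. Without WT-LPS-184 the difference was 0.94 with an adjusted p of 0.0589, and with every other library left out it passed the threshold. The KO-PBS group was itself lower than WT-PBS for this gene, so the baseline differs between the 2 responses.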

How the results depend on the processing

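No named member's call changed sign under any alternative, and of the named members' values 2611 kept their side of the threshold, 116 no longer passed and 116 newly passed. The count of members lower in LL than in PL was 13 with DESeq2, 11 with limma without sva and 2 with the compared groups alone, and 1 to 10 with a library left out. For the second minus the first response it was 3 at an adjusted p under 0.1, 1 with DESeq2 and with no filter, 4 with limma and sva and 2 without sva, and 0 to 1 with a library left out. In WT, 19 members were higher with limma, with or without sva, 10 to 20 with a library left out, and the lower count was 2 with plain library totals and with limma without sva, 1 with DESeq2 and 0 to 1 with a library left out. In KO, 13 were higher with plain library totals, and 0 to 1 were lower with a library left out. For KO-LPS against WT-LPS, 2 were higher with plain library totals, 11 with limma and sva and 15 without, and 2 to 12 with a library left out. With PBS, 2 were higher in KO with limma without sva and 1 to 2 with a library left out. For KO minus WT, 4 were higher at an adjusted p under 0.1 and with DESeq2, 3 with RLE scaling, and 2 with the 1 CPM filter and with limma, with or without sva, and 0 to 2 with a library left out. As a percent of the plain library total, the summed level was 2.17-fold higher in PL than in PP and 1.38-fold higher in KO-LPS than in KO-PBS. Plain library totals were chosen after seeing the data. They moved the median of all genes tested by over 0.1 in 4 comparisons, to -0.17 in PL versus PP, -0.14 in WT, -0.26 in KO and -0.14 in KO-LPS versus WT-LPS. Leaving out single libraries for Myc and singling out WT-PBS-175 were also chosen after seeing the data. Without WT-PBS-175 the difference of Myc was 1.13 in KO-PBS versus WT-PBS and -1.11 for KO minus WT, where with all libraries both were near 0 with the opposite sign and did not pass. With single libraries left out these values ran from -0.48 to 1.13 and from -1.11 to 0.50. With the replicate block, 34 members were higher in PL and 6 were lower in LL than in PL, and it changed no other count by over 1.5 times. No paired analysis was possible in the training model because its groups share no replicate numbers. H3K4me1 was at the starts of 40 members (window of 2000 bases), 28 (upper part of the list by score, cut at its median) and 32 (50% overlap) in WT-PBS and of 29 (upper part) and 36 (50% overlap) in KO-PBS, and H3K27ac in the upper part at 36 in WT-PBS and 35 in KO-PBS. Upstream of the start alone, 1 of 34 members had CACGTG (2.94%, against 9.77% of genes tested), so the members' share went from above to below that of genes tested. With RLE scaling, 1 of the other biogenesis factors was lower and 1 exosome gene higher in KO-LPS against WT-LPS. In KO-LPS against KO-PBS, 5 polymerase I genes and 35 ribosomal protein genes were then higher. The causes were not tested. What depth limits was not tested.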
